A study of Mus musculus with 3 samples.

Results

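The genes described here are 37 genes of the mesenchymal extracellular matrix, taken from a given list by the gene name of each array probe. The list holds collagens, proteoglycans, elastic fibre proteins, crosslinking enzymes, adhesive proteins, the transcription factor Prrx1 and the receptor Pdgfrb. They had 53 probes, out of 39429 probes and 30175 gene names on the array, and 47 of the 53 probes, at least 1 for every gene, were bright enough to be used.

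RNA came from mouse embryoid bodies, the floating aggregates in which embryonic stem cells differentiate into many cell types, after 10 days of suspension culture in low-attachment plates with no LIF, the cytokine that holds stem cells undifferentiated. The wild-type group was compared with a group labelled Dido3deltaCT+HADido3CT, called mutant+CT here, whose Dido3 protein is truncated at its C-terminal end and which overexpresses the missing region, encoded by exon 16. Each of 3 arrays held 1 wild-type and 1 mutant+CT sample, labelled as biological replicates 1 to 3. No group carried the truncation or the overexpressed region alone, so their shares in any value cannot be told apart, and the labels do not name the stem cell clones or the promoter of the construct.

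Mesenchymal cells secrete collagens as triple-helical precursors that assemble outside the cell into fibrils. Proteoglycans such as decorin and lumican bind the fibrils, lysyl oxidases crosslink them, and fibrillins and elastin form the elastic fibres beside them. In embryoid bodies such cells can arise from mesoderm, as can heart muscle, smooth muscle and endothelium. Parietal endoderm makes a matrix of its own, rich in collagen IV and laminin.

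The arrays had median signals of 200 to 227 in green and 144 to 200 in red, over local backgrounds of 36.5 to 44, and 0 spots of any gene were saturated. Wild type was labelled with Cy5 on replicates 1 and 3 and with Cy3 on replicate 2, so a difference of replicate 2 and a dye effect cannot be told apart, while replicates 1 and 3 can be compared within a dye. The 4 probes of the targeted gene Dido1 had mean log2 ratios (positive where mutant+CT is higher) from -2.39 to 3.53. On replicates 1, 2 and 3, A_66_P128564 had 3.42, 3.53 and 3.66, and A_55_P2430472 had 1.53, 2.16 and 1.69. A_52_P226127 had -3.85, -1.4 and -1.93, so each of these kept its sign on the dye-swapped array. A_51_P336385 had -0.01, 1.58 and 0.74. Their place relative to exon 16 was not determined, so they do not check which region is lost or overexpressed. A log2 ratio of 1 is a 2-fold difference, and intensities are given as normalized log2 values that are comparable between arrays for 1 probe but not between probes. The p-values measure the spread between these 3 pairs of samples. In RNA from whole embryoid bodies, fewer cells of a type and less RNA per cell cannot be told apart.

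The matrix genes differed strongly between wild type and mutant+CT on single arrays, in opposite directions. On replicate 1, 22 of the 37 were at least 2-fold higher in mutant+CT (9.02% of all 20368 genes tested) and 2 were at least 2-fold lower (4.77%). On replicate 2, 0 were at least 2-fold higher (6.31%) and 15 were at least 2-fold lower (8.03%). On replicate 3, 8 were at least 2-fold higher (13.8%) and 11 at least 2-fold lower (10.1%). The median log2 ratio of the 37 genes was 1.26, -0.75 and -0.12 on replicates 1, 2 and 3, whereas that of all genes lay between 0.01 and 0.02 on every array.

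Of the 37 genes, 0 had an adjusted p under 0.05 in limma with Benjamini-Hochberg adjustment over all genes, as did 0% of all genes. At an unadjusted p under 0.05 there were 7 matrix genes, Col2a1, Col11a1, Fn1, Ogn, Fbn2, Fbln2 and Loxl2, which is 18.9% of them beside 15.8% of all genes. Without replicate 1, limma called 4 matrix genes, all lower in mutant+CT, namely Postn, Lum, Vcan and Fbn2, beside 0.786% of all genes. That fit rests on 2 arrays with opposite dyes. Without replicate 2, and likewise without replicate 3, limma called 0 matrix genes and 0% of all genes. A fit of the separate channels called 2, Col2a1 and Loxl2, both lower, beside 2.32% of all genes. Agilent's processed signals gave 0 calls among the 37 and 289 among all genes, and a trended and robust variance prior 0 and 176. A filter in both conditions, which left 30 of the 37 among 18245 genes tested, gave 0 and 13. At an adjusted p under 0.1, limma called 0 of the 37 and 302 of all genes.

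Higher on every array were 3 matrix genes, Fn1, Fbln2 and Mfap5 (20.3% of all genes), and lower on every array were 4, Col2a1, Ogn, Fbn2 and Loxl2 (17.4%). At least 2-fold lower on every array were 2, Col2a1 and Loxl2 (0.992%), and 0 (1.90%) were higher by that factor on all 3. Above 0 on replicate 1 and below 0 on replicates 2 and 3 were 13 (8.95%). At least 2-fold higher on replicate 1 and at least 2-fold lower on replicate 2 were 10 (1.59%): Col1a1, Col1a2, Col3a1, Postn, Dcn, Lum, Vcan, Fbn1, Lox and Mfap4.

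**Figure D1:**
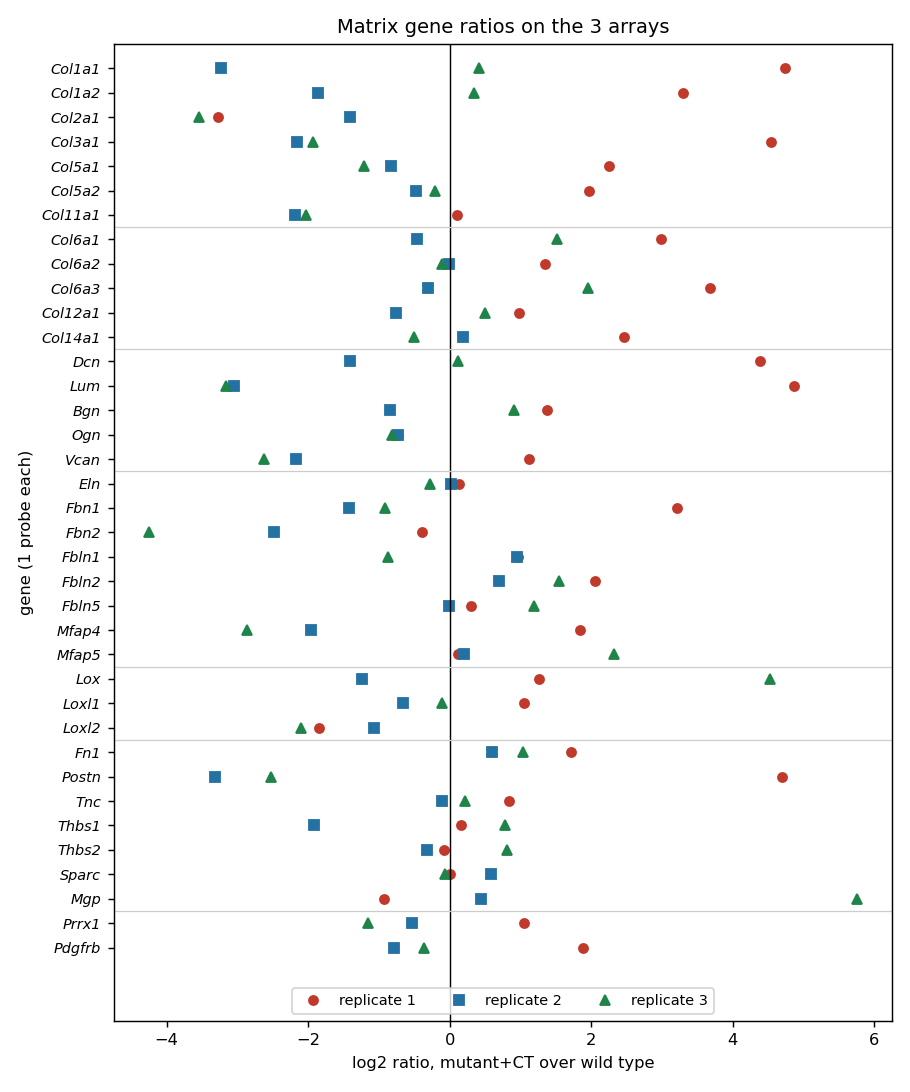
Ratio to wild type on a log2 scale (x axis, positive where mutant+CT is higher) for the 37 matrix genes (y axis, 1 probe each, lines separate the role groups), with 1 point per array. Points of replicate 1 lie furthest to the right for most collagens and proteoglycans, with Col1a1 at 4.73, while Col2a1 and Loxl2 lie at or below -1.06 on every array.

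Which condition varied was read from the separate intensities. The SD over the 3 mutant+CT samples was larger than that over the 3 wild-type samples for 34 of the 37 genes (55.8% of all genes), all but Col2a1, Ogn and Thbs2. The median SD of the matrix genes was 1.26 in mutant+CT, beside 0.403 for all genes, and 0.368 in wild type, beside 0.363. An SD above 1 was found for 25 of them in mutant+CT (7.57%) and for 2 in wild type (5.24%), Col3a1 and Lum. The wild-type samples spread about as much as for other genes, and the mutant+CT samples more.

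The mutant+CT sample of replicate 1 had the highest of the 6 intensities for 24 of the 37 genes (17.6% of all genes), that of replicate 2 for 2 (15.8%), Fbln1 and Sparc, and that of replicate 3 for 6 (20.6%): Col12a1, Fbln5, Lox, Mgp, Mfap5 and Thbs2. The mutant+CT sample of replicate 2 had the lowest for 18 genes (15.2%), that of replicate 3 for 6 (17.9%), that of replicate 1 for 2 (18.8%), and a wild-type sample for 11 (48.1%). A wild-type sample had the highest intensity for 5 genes (45.9%), namely Col2a1, Col11a1, Ogn, Fbn2 and Loxl2. Replicate 1 exceeded the mean of replicates 2 and 3 by a median of 1.75 log2 units over the matrix genes in mutant+CT, and differed from it by -0.10 in wild type. Without replicate 1, the spread was still larger in mutant+CT for 26 of 37 genes, beside 48.3% of all genes. The median SD was then 0.73 in mutant+CT and 0.423 in wild type. Replicates 2 and 3 carry opposite dyes, so this spread and a dye effect cannot be told apart. Without replicate 2, within a shared dye, the spread was larger in mutant+CT for 33 of 37 genes, beside 60.2% of all genes. The median SD there was 1.06 in mutant+CT and 0.261 in wild type.

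**Figure D2:**
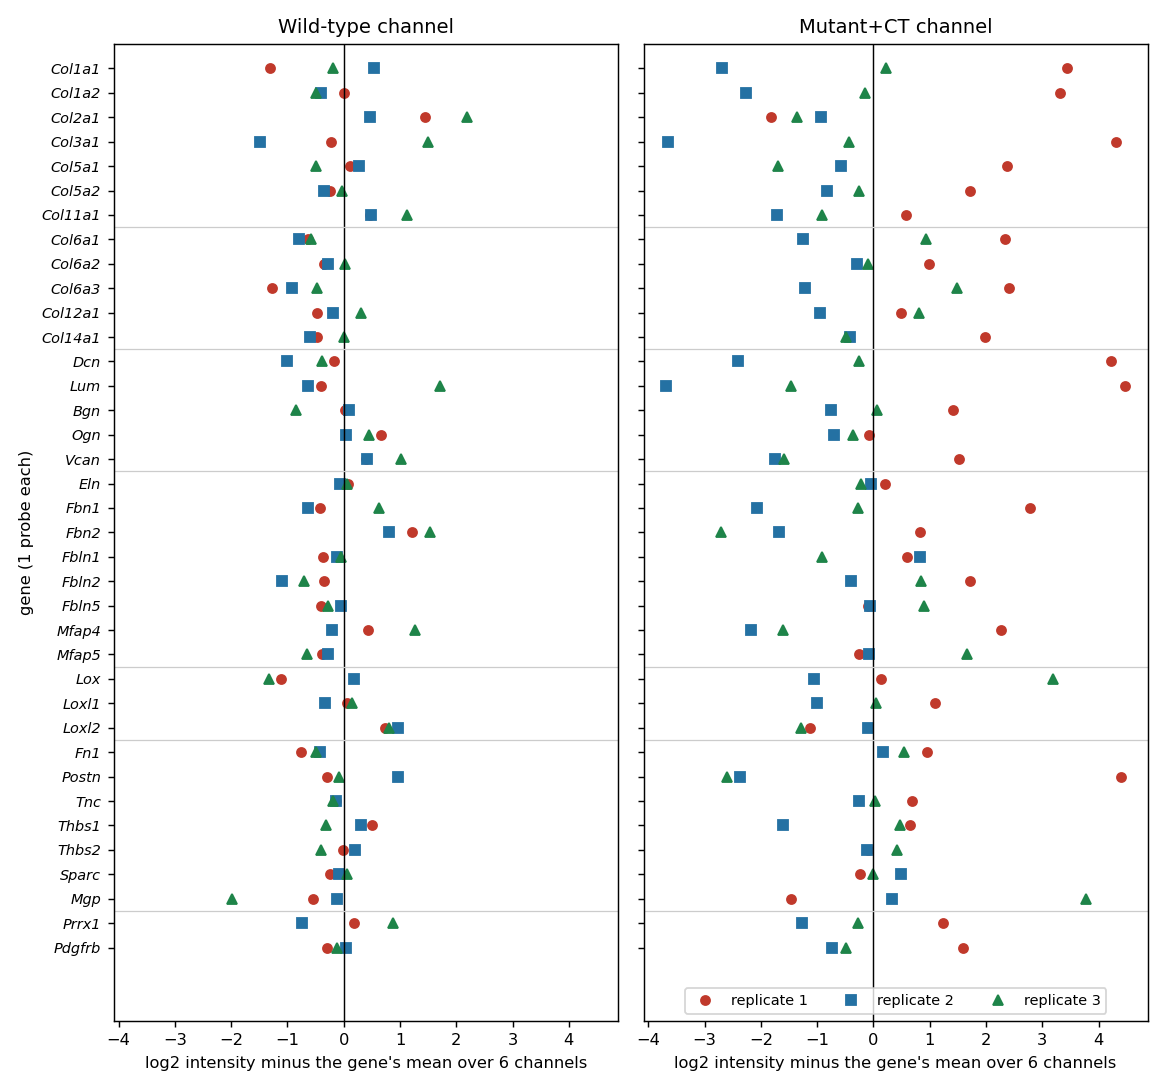
Log2 intensity of each matrix gene in the 3 wild-type samples (left) and the 3 mutant+CT samples (right), as the difference from the gene's mean over the 6 channels (x axis), with genes on the y axis. Wild-type points stay near 0 for most genes, and mutant+CT points spread, with replicate 1 highest of all 6 for 24 genes.

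**Figure D3:**
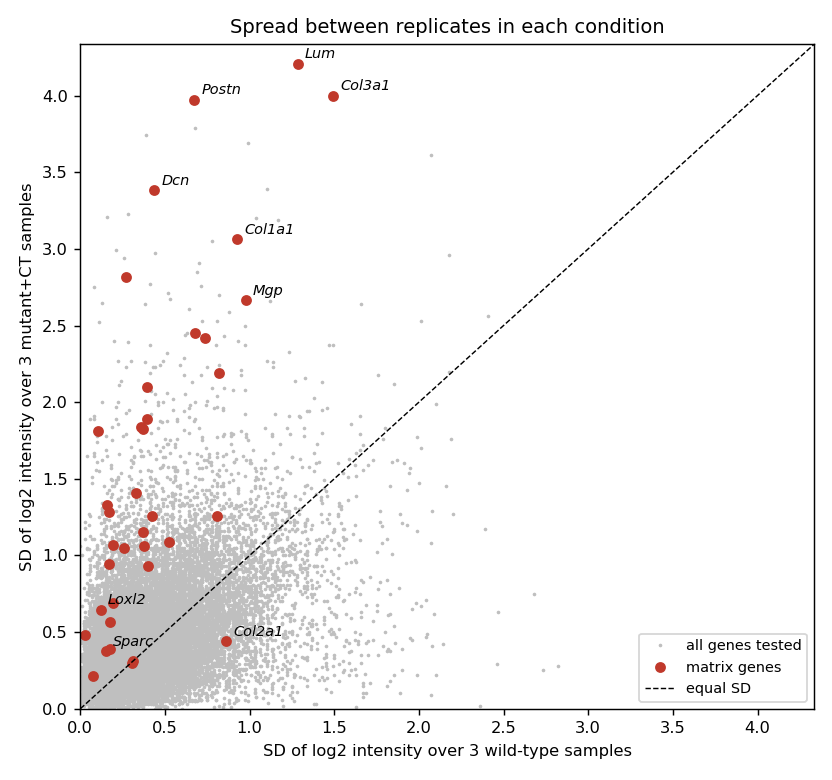
SD of log2 intensity over the 3 mutant+CT samples (y axis) against that over the 3 wild-type samples (x axis), with matrix genes as large points and all genes tested as small points. Of the matrix genes, 34 lie above the dashed line of equal SD, led by Lum at 4.21 and Col3a1 at 4.00.

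Fibrillar collagens form the bulk of the interstitial matrix. The promoters of 3 that could be matched to RefSeq are printed to show the sequence upstream of Col1a2 and Col3a1, far higher in mutant+CT on replicate 1, and of Col11a1, which was not. Each holds the 250 bases before the annotated start in GRCm38.p6, 5′ to 3′ on the gene's strand, and capitals mark the CCAAT box, the TATAAA form of the TATA box, or the GC box read as GGGCGG, each on either strand. Col1a2 lies at chr6:4505368-4505617 (plus strand), Col3a1 at chr1:45311288-45311537 (plus strand) and Col11a1 at chr3:114030290-114030539 (plus strand).
Col1a2: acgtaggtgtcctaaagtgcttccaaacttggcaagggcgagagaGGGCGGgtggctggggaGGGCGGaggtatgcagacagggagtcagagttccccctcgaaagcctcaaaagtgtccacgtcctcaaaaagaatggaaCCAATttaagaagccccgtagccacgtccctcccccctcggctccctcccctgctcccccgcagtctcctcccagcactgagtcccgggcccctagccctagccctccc
Col3a1: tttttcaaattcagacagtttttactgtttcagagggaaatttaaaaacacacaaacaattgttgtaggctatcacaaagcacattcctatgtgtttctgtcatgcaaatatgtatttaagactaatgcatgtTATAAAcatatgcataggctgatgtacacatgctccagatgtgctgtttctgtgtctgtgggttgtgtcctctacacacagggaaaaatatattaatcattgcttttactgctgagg
Col11a1: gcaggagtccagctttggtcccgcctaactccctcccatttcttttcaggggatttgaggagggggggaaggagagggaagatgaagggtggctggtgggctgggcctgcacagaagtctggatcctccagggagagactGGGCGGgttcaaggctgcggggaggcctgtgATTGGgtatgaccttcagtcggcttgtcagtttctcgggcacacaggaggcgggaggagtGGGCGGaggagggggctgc

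These windows shared no arrangement of the 3 motifs, which were matched as strings at any distance from the start. Col1a2 held CCAAT and GGGCGG. Col3a1 held TATAAA alone, 117 to 112 bases before the start, and whether it acts as a TATA box was not tested. Col11a1 held GGGCGG and a CCAAT on the other strand (printed as ATTGG). Promoters of 19 of the 37 matrix genes were found. CCAAT was in 5 of the 19, beside 34.5% of 27025 RefSeq promoters of the same length, TATAAA in 4, beside 13%, and GGGCGG in 10, beside 33%. Of 3 further motifs, not in capitals, CAGAC was in 11 of the 19 (42.2% of all), GGAATG in 3 (12.6%) and TGANTCA in 1, Col6a1 (6.85%). In the printed windows no match of 1 motif overlapped a match of another.

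Col1a1 encodes the major chain of type I collagen, the main fibre of bone, tendon and dermis (probe A_55_P2118520, mm9 chr11:94813115-94813174). Its log2 intensity was 11.43, 13.26 and 12.54 in wild type and 16.16, 10.04 and 12.95 in mutant+CT on replicates 1, 2 and 3. The mutant+CT samples held both the highest and the lowest of the 6 values, so the groups overlapped. They spanned 69.6-fold, and the wild-type samples 3.57-fold. The log2 ratios were 4.73, -3.23 and 0.41, with a mean of 0.64 ± 3.98 (SD, n = 3; limma, Benjamini-Hochberg adjusted p = 0.894). Between replicates 1 and 3, which share their dyes, Col1a1 was 9.25-fold higher on replicate 1 in mutant+CT and 2.16-fold lower in wild type.

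Col1a2, the partner chain of type I collagen, had intensities of 11.88, 11.47 and 11.38 in wild type and 15.18, 9.61 and 11.73 in mutant+CT. Its ratios of 3.30, -1.86 and 0.34 kept the order of Col1a1, and the wild-type samples spanned 1.41-fold against 47.6-fold in mutant+CT. Col3a1, the chain of type III collagen of soft and vascular tissue, had 12.08, 10.82 and 13.80 in wild type and 16.62, 8.66 and 11.88 in mutant+CT. Its wild-type samples differed by 7.88-fold and its mutant+CT samples by 248-fold, with replicate 1 highest and replicate 2 lowest. The Col3a1 ratios were 4.54, -2.16 and -1.93, so that replicate 3 went with replicate 2, in contrast to the type I chains.

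Col5a1 and Col5a2 encode chains of type V collagen, which starts type I fibrils. Col5a1 had 10.44, 10.58 and 9.84 in wild type and 12.69, 9.75 and 8.62 in mutant+CT, with ratios of 2.25, -0.84 and -1.21. Col5a2 had 6.75, 6.66 and 6.97 in wild type and 8.72, 6.18 and 6.76 in mutant+CT, with ratios of 1.96, -0.48 and -0.21. In both, mutant+CT replicate 1 stood above every other sample and the other mutant+CT samples lay at or below the wild-type range, apart from Col5a2 on replicate 3, which lay inside it. The Col5a2 probe was well above background on 2 of the 3 arrays in mutant+CT.

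Col2a1 and Col11a1 form the fibrils of cartilage and of early embryonic sheaths, and neither was above the wild-type range in mutant+CT replicate 1. Col2a1 (probe A_55_P2004179, mm9 chr15:97806071-97806130) had 12.73, 11.75 and 13.46 in wild type and 9.46, 10.34 and 9.91 in mutant+CT. All 3 mutant+CT samples lay below all 3 wild-type samples, and the spread was larger in wild type (SD 0.86) than in mutant+CT (0.44). The ratios were -3.27, -1.41 and -3.55, a mean of -2.74 ± 1.16 (SD, n = 3), 6.7-fold lower, with the smallest p of the 37 genes (limma, Benjamini-Hochberg adjusted p = 0.101). The separate-channel fit gave it an adjusted p of 0.0261 in limma, while over the other settings fitted for single genes its limma adjusted p lay between 0.0617 and 0.25. Col11a1 had 8.36, 8.38 and 9.01 in wild type and 8.47, 6.19 and 6.97 in mutant+CT. Its ratios of 0.11, -2.19 and -2.04 left replicate 1 within the wild-type range and the other mutant+CT samples below it. Unlike for Col2a1, replicate 1 was thus the highest of the mutant+CT samples of Col11a1.

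Collagen VI forms beaded microfibrils around cells, and its 3 chains were highest in mutant+CT replicate 1. Col6a1 had 9.31, 9.15 and 9.35 in wild type and 12.29, 8.69 and 10.87 in mutant+CT, with ratios of 2.98, -0.46 and 1.52. Col6a3 had 7.19, 7.55 and 7.98 in wild type and 10.88, 7.24 and 9.94 in mutant+CT, with ratios of 3.69, -0.31 and 1.96. Replicates 1 and 3 of mutant+CT lay above every wild-type sample in both genes, and replicate 2 lay below or within the wild-type range. Col6a2 had smaller ratios of 1.34, -0.01 and -0.12. The fibril-associated collagen Col12a1 had 0.97, -0.75 and 0.49.

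Col14a1, another fibril-associated collagen, had ratios of 2.46, 0.19 and -0.50, and 5.54-fold more signal in mutant+CT replicate 1 than in replicate 3, beside 1.41-fold less in wild type. Its second probe was too dim to be used, with ratios of 0.85, 0.12 and -0.15 that kept the order. That probe (mm9 chr15:55347733-55347792) is printed because it reads through the glycine repeat that defines collagen helices. In the printed frame, 7 of its 20 codons are GGN, glycine codons, given in capitals.
A_55_P2159522: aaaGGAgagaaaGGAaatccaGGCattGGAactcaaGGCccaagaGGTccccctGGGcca

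Of the proteoglycans, Lum (probe A_51_P167527, mm9 chr10:97035210-97035269), which spaces collagen fibrils, had 9.45, 9.22 and 11.55 in wild type and 14.31, 6.17 and 8.39 in mutant+CT. Mutant+CT replicate 1 was highest and replicates 2 and 3 were lowest of the 6, so the groups overlapped. The ratios were 4.86, -3.05 and -3.16, the largest range among the 37 genes, with a mean of -0.45 ± 4.60 (SD, n = 3). Without replicate 1 the mean ratio of Lum was -3.11 (limma, Benjamini-Hochberg adjusted p = 0.031). In mutant+CT its probe was well above background on 2 of 3 arrays.

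Dcn, which binds fibrils beside lumican, had 8.76, 7.92 and 8.55 in wild type and 13.15, 6.52 and 8.67 in mutant+CT, a span of 1.79-fold against 99.3-fold. Its ratios of 4.39, -1.41 and 0.12 resembled those of the type I collagen chains in order. Vcan, a large hyaluronan-binding proteoglycan of embryonic matrix, had 10.86, 10.90 and 11.50 in wild type and 11.99, 8.73 and 8.88 in mutant+CT. Its ratios were 1.12, -2.17 and -2.62, and without replicate 1 the mean was -2.40 (limma, Benjamini-Hochberg adjusted p = 0.0471). A dimmer Vcan probe had 0.54, -0.92 and -0.37. Bgn, a relative of decorin, had ratios of 1.38, -0.84 and 0.91.

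Ogn, a small proteoglycan of bone and heart, did not share the spread. It had 7.42, 6.80 and 7.21 in wild type and 6.69, 6.06 and 6.39 in mutant+CT, and every mutant+CT sample lay below every wild-type sample. Its ratios of -0.73, -0.74 and -0.81 had the smallest range of the 37 genes, 0.08, with a mean of -0.76 ± 0.05 (SD, n = 3; limma, Benjamini-Hochberg adjusted p = 0.196). Its probe was well above background on 2 of 3 mutant+CT arrays, and on Agilent's processed signals the mean ratio was -2.79 (limma, adjusted p = 0.0827).

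Among elastic fibre genes, Fbn1, the fibrillin of adult microfibrils, followed the interstitial collagens. It had 8.91, 8.71 and 9.97 in wild type and 12.12, 7.28 and 9.06 in mutant+CT, with ratios of 3.21, -1.43 and -0.91. Its promoter window, shown for comparison with those of the collagens, holds 1 GGGCGG and lies at chr2:125506439-125506688 (GRCm38.p6, minus strand).
Fbn1: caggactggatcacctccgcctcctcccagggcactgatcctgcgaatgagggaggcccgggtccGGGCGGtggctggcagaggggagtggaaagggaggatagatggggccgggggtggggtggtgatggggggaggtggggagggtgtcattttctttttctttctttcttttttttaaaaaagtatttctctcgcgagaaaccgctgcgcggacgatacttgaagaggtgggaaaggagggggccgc

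Fbn2, the fibrillin of fetal microfibrils, ran lower. It had 10.17, 9.75 and 10.48 in wild type and 9.78, 7.26 and 6.23 in mutant+CT, where replicate 1 overlapped the wild-type range and the other samples lay below it. The ratios were -0.39, -2.48 and -4.25, and without replicate 1 the mean was -3.37 (limma, Benjamini-Hochberg adjusted p = 0.0384). This probe was well above background on 2 of 3 arrays in mutant+CT. A dimmer Fbn2 probe had 1.02, -0.64 and -2.19, so the probes differed in sign on replicate 1. With the filter in both conditions, which leaves that probe, the Fbn2 mean was -0.60 (limma, adjusted p = 0.717), and the mean of all probes was -1.49. Mfap4, a microfibril-associated protein, had ratios of 1.83, -1.97 and -2.87.

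Fbln2, a fibulin that links fibrillin and other matrix proteins, was higher on every array. It had 11.14, 10.39 and 10.78 in wild type and 13.20, 11.08 and 12.33 in mutant+CT, with an overlap between mutant+CT replicate 2 and wild-type replicate 1. Its ratios of 2.05, 0.69 and 1.54 had a mean of 1.43 ± 0.69 (SD, n = 3; limma, Benjamini-Hochberg adjusted p = 0.148). Fbln1 had 0.96, 0.95 and -0.87, and its other 2 probes had the same signs. Fbln5, which brings elastin to microfibrils, had 0.31, -0.02 and 1.18.

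Mfap5 had 7.82, 7.91 and 7.54 in wild type and 7.94, 8.12 and 9.87 in mutant+CT, and all mutant+CT samples lay above all wild-type samples, replicate 3 furthest. Its ratios were 0.11, 0.21 and 2.33. Eln, elastin itself, had 6.84, 6.70 and 6.82 in wild type and 6.97, 6.73 and 6.55 in mutant+CT, and the groups overlapped. Its ratios of 0.14, 0.02 and -0.28 were among the 5 with the smallest range.

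The crosslinking enzymes went separate ways. Lox, the lysyl oxidase of collagen and elastin, had 6.88, 8.18 and 6.66 in wild type and 8.14, 6.94 and 11.19 in mutant+CT. Here mutant+CT replicate 3 was the highest sample, with ratios of 1.26, -1.24 and 4.52, and a second probe gave 0.93, -0.38 and 2.54. Loxl1 had ratios of 1.05, -0.66 and -0.11.

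Loxl2, a lysyl oxidase that crosslinks collagen IV, was lower on every array by its brightest probe (A_52_P480351, mm9 chr14:70095254-70095313). That probe had 13.93, 14.17 and 14.01 in wild type and 12.08, 13.11 and 11.91 in mutant+CT, with no overlap and a wild-type span of 1.18-fold. Its ratios were -1.85, -1.06 and -2.10, a mean of -1.67 ± 0.54 (SD, n = 3), 3.19-fold lower (limma, Benjamini-Hochberg adjusted p = 0.104; 0.037 in the separate-channel fit). The other 2 Loxl2 probes did not share this difference. A_55_P2131348 (chr14:70090017-70090076) had -0.03, 0.76 and -0.37, and A_51_P275949 (chr14:70092141-70092200) had 0.13, 0.16 and 0.04, with wild-type intensities of 10.68, 11.32 and 10.48. The mean of all 3 probes was -0.48, with a limma adjusted p of 0.416. The sequences of these 2 probes are shown as the files give them, and that of A_52_P480351 is not. The part of the transcript that each probe reads was not determined, so the disagreement is not traced to a place.
A_55_P2131348: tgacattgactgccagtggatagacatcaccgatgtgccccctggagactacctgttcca
A_51_P275949: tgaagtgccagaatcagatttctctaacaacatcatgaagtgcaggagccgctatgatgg

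Of the adhesive and matricellular genes, Fn1, fibronectin, was higher in every pair. It had 14.58, 14.91 and 14.85 in wild type and 16.29, 15.51 and 15.89 in mutant+CT, and all mutant+CT samples lay above all wild-type samples. The ratios of 1.71, 0.60 and 1.04 had a mean of 1.12 ± 0.56 (SD, n = 3; limma, Benjamini-Hochberg adjusted p = 0.178). Sparc, a collagen-binding glycoprotein, had 15.28, 15.44 and 15.58 in wild type and 15.28, 16.02 and 15.52 in mutant+CT by its brighter probe. The ratios of that probe were -0.003, 0.58 and -0.07. Its other probe, less than a kilobase away on chromosome 11, had -0.96, -3.04 and -0.43, with wild-type intensities of 12.35, 16.18 and 14.37. The probes of Sparc therefore differed in sign on replicate 2 and in the mean (0.17 and -1.47), and in their spread in wild type.

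Postn, periostin, a matricellular protein of heart valves and periosteum (probe A_55_P1954086, mm9 chr3:54194840-54194899), had 8.76, 10.02 and 8.98 in wild type and 13.45, 6.70 and 6.45 in mutant+CT. Mutant+CT replicate 1 was above and replicates 2 and 3 below every wild-type sample. Its ratios were 4.69, -3.32 and -2.53, and within the shared dye replicate 1 exceeded replicate 3 by 128-fold in mutant+CT and was 1.16-fold lower in wild type. Without replicate 1 the mean was -2.93 (limma, Benjamini-Hochberg adjusted p = 0.0351), beside -0.39 ± 4.42 (SD, n = 3) over all arrays.

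Mgp, an inhibitor of calcification in cartilage and vessel walls, was highest in mutant+CT replicate 3, as was Lox. It had 8.88, 9.31 and 7.45 in wild type and 7.96, 9.76 and 13.20 in mutant+CT, where replicate 3 was far above the rest. Its ratios were -0.93, 0.45 and 5.76. Thbs1, a thrombospondin, had 0.15, -1.92 and 0.78, and Thbs2 had -0.08, -0.32 and 0.81. Tnc, tenascin C, had 6.43, 6.43 and 6.39 in wild type and 7.27, 6.33 and 6.61 in mutant+CT. The Tnc probe was well above background on 1 wild-type array only, and its ratios were 0.83, -0.11 and 0.22.

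Prrx1, a homeobox factor of limb and craniofacial mesenchyme, had 7.87, 6.94 and 8.56 in wild type and 8.92, 6.42 and 7.40 in mutant+CT. Its ratios of 1.05, -0.53 and -1.15 were matched on a second probe by 1.27, -0.42 and -0.51, so the means of the probes, -0.21 and 0.11, differed in sign although the probes had the same sign on each array. Pdgfrb, the PDGF receptor of pericytes and other mesenchyme, had 9.74, 10.08 and 9.91 in wild type and 11.63, 9.29 and 9.55 in mutant+CT. Its ratios were 1.89, -0.79 and -0.36, and mutant+CT replicate 1 again stood above all wild-type samples with the others below them.

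Genes related to these in function were read from 6 lists, and 0 members of any list passed limma over all genes. Collagen synthesis and processing genes (19 of 21 measured) had median ratios of -0.29, -0.43 and -0.56, below 0 on every array. Of the 19, 7 were lower on all 3 arrays (17.4% of all genes) and 2 were higher (20.3%). The hydroxylase Plod2 had -1.48, -1.28 and -1.17, and the collagen chaperone Serpinh1 had -0.62, -1.18 and -1.75. Other members were high on replicate 1, among them, named after their values were seen, the procollagen protease Adamts2 (3.55, -0.24 and 1.11), the protease enhancer Pcolce (3.04, 0.05 and 0.37) and the collagen chaperone Fkbp10 (1.64, -0.70 and -0.47). In all, 5 of the 19 were above 0 on replicate 1 and below 0 on the other arrays (8.95% of all genes). Other fibril-associated and matrix genes (22 of 27) had medians of 0.32, -0.16 and -0.45. Among them Col7a1, the collagen of anchoring fibrils, had 1.27, 1.58 and 1.99, and Tgfbi, a secreted adhesion protein induced by TGF-beta, had 3.64, -0.18 and -0.80.

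TGF-beta ligands, receptors and responses (17 of 17) had medians of 0.34, -0.78 and -0.48, and Ccn2, a matricellular TGF-beta response gene, had -1.99, -1.33 and -0.40. Mesenchyme transcription factors (20 of 23) had medians of 0.82, -0.82 and -0.93. Twist1 had 2.61, -1.42 and 0.09, and Snai1, a repressor of E-cadherin, had -1.40, -2.08 and -1.01. PDGF and mesenchymal surface genes (18 of 20) had medians of 0.94, -0.07 and 0.29, with Pdgfra at -0.45, -1.45 and -1.29 and the integrin chain Itgb3 at 1.15, 1.67 and 1.78. Matrix proteases and inhibitors (14 of 17) had medians of 0.48, -0.08 and 0.24, with the gelatinase Mmp9 at 1.55, 0.46 and 0.90.

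Cardiomyocyte markers were higher together with the matrix genes on replicate 1, and some smooth muscle and endothelial markers were as well. The summed intensity of the 37 matrix genes, divided by 1000, was 119, 133 and 155 in wild type and 433, 143 and 159 in mutant+CT. Bright probes weigh most on such sums. In mutant+CT replicate 2, Sparc and Fn1 had log2 intensities of 16.02 and 15.51, the highest of the 37 there. The median log2 ratio of the 37 genes on that replicate was -0.75. The summed intensity of cardiomyocyte markers (13 of 14 measured) was 22.9, 25.3 and 17 in wild type and 104, 18 and 11.2 in mutant+CT. On replicate 1, 12 of the 13 were at least 2-fold higher (9.02% of all genes). Gata4 made up 53.9% of this sum in wild type on replicate 1, whereas Actc1 led in mutant+CT with 26.2%. Gata4 alone of these markers was lower on every array, with ratios of -0.70, -0.37 and -0.94. Smooth muscle markers (7 of 9) had 17.4, 26.9 and 8.73 against 57, 14.7 and 9.96, but Acta2, smooth muscle actin, made up 61.8% of the sum in mutant+CT replicate 1. In all 3 sums mutant+CT replicate 1 was the highest sample. Hand2, a heart and limb transcription factor, had ratios of 4.39, -2.60 and -2.80, and Acta2 had 2.45, -2.24 and -2.27. Of the 7 smooth muscle markers, 3 were at least 2-fold higher on replicate 1, Acta2, Tagln and Actg2, the list median there was 0.33, and Myh11, Cnn1, Smtn and Mylk lay between -0.32 and 0.33. The SD was larger in mutant+CT than in wild type for 2 of the 7 (55.8% of all genes). It was larger in mutant+CT for 13 of 13 cardiomyocyte markers, with a median SD of 1.68 beside 0.527 in wild type. The same held for 8 of 9 endothelial markers and for 16 of 20 mesenchyme transcription factors. Of visceral endoderm and neural progenitor markers, it held for 3 of 9 and 1 of 8.

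Endothelial markers (9 of 10) summed to 13.9, 24.5 and 14.1 against 20.9, 16 and 11.8. Of the 9, 5 were at least 2-fold higher on replicate 1 (9.02% of all genes). Sox17 made up 64.8% of this sum in wild type on replicate 1, whereas Flt1 led in mutant+CT with 30.9%. Sox17 is also among the parietal endoderm markers below, and had ratios of -0.85, -1.09 and -0.38. Cartilage markers (10 of 11) summed to 35.3, 20.5 and 30.8 against 44.1, 23.7 and 26.9. Sox5 alone made up 88.5% of the cartilage sum in wild type and 89.5% in mutant+CT on replicate 1. Of the 10 cartilage markers, Sox5, Acan, Matn4 and Col9a3, 4 in all, were higher on every array (20.3% of all genes). Sox9 and Sox6, 2 in all, were lower on every array (17.4%). Sox9, the cartilage regulator that acts on Col2a1, had -0.54, -1.77 and -3.58. Parietal endoderm markers (13 of 13, including Sparc) summed to 410, 654 and 383 against 122, 299 and 137, with Col4a1 at -3.20, -1.50 and -3.34. Visceral endoderm markers (9 of 9) summed to 49.2, 178 and 86.8 against 179, 346 and 138, naive pluripotency markers (11 of 11) to 64.3, 51.3 and 40.7 against 107, 86.2 and 231, and neural progenitor markers (8 of 9) to 26.5, 4.62 and 39.2 against 8.27, 3.64 and 9.46. Sox2 made up 67% of the neural progenitor sum in mutant+CT on replicate 1 and 29.8% in wild type. Among all these markers, 1 of neural progenitors was well above background on no mutant+CT array. The part of other cell types in the matrix gene values was not tested.

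**Figure D4:**
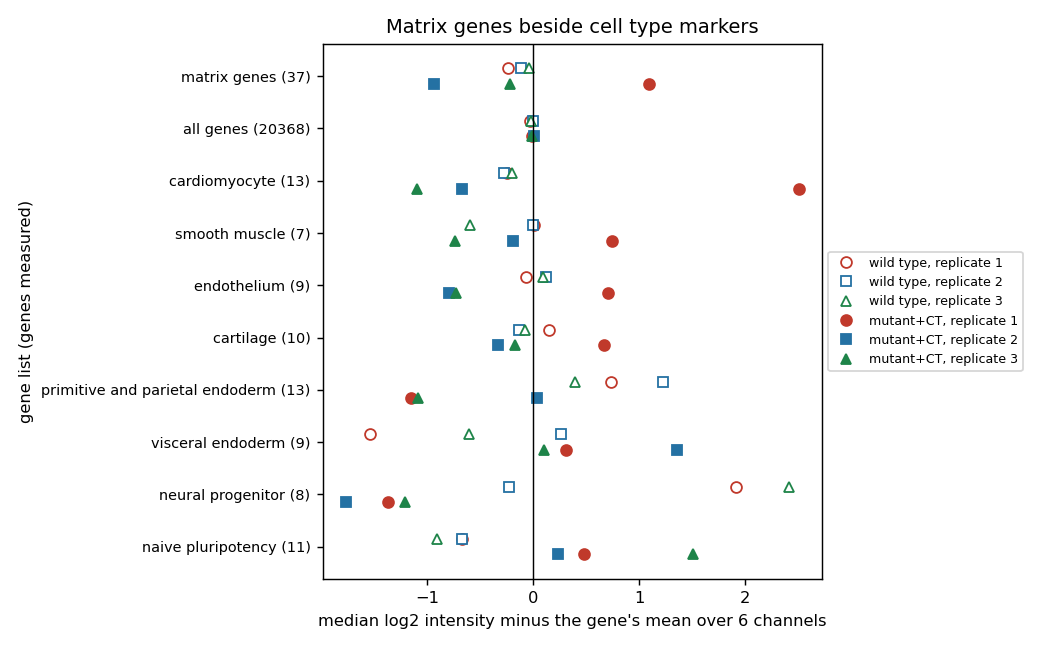
Median log2 intensity of the matrix genes, of all genes and of 8 lists of cell type markers in the 6 channels, as the difference from each gene's mean over the channels (x axis), with open symbols for wild type and filled symbols for mutant+CT. Mutant+CT replicate 1 lies to the right for the matrix genes (1.10) and the cardiomyocyte markers (2.51), while the median of all genes stays near 0 in every channel.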

How the data were processed

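Each of 3 2-colour Agilent arrays held cRNA of 1 wild-type and 1 mutant+CT sample, from 1 µg of RNA, with 300 ng per dye per the labels. Intensity values deposited as scanner output, the mean brightness of each spot and the median of its surroundings, came from Feature Extraction (10.7.3.1 in the file headers). The authors' deposited value table holds log2 ratios, made with limma per the submitters' processing notes, and ran with slopes of 1.03, 0.966 and 0.971 against the ratios computed here. The deposited log10 ratio in the scanner files was used only to find its direction.

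Intensities were corrected with normexp (offset 50) and loess in limma 3.58.1 (R 4.3.3, statmod 1.5.0), outlier spots were left out (0 were members'), and separate channels were scaled with Aquantile. A probe was kept when well above background on all 3 arrays in 1 condition (26698 of 39429). The brightest kept probe stood for a gene; other probes are given where their sign differed. Ratios were tested against 0 with limma and Benjamini-Hochberg adjustment over 20368 genes at an adjusted p under 0.05. Members, related lists, markers and the rule for genes given array by array (fibrillar collagens, the 5 largest and 5 smallest ranges, the 3 smallest p, probes that disagree) were chosen with earlier results of these data known; further members are named after their values were seen. Names came from RefSeq by accession for 30708 of 43020 spots, positions are the files' mm9 coordinates, and promoters are RefSeq's of GRCm38.p6. The steps were tested on simulated data.

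Alternatives covered background correction, normalization, filter, probe choice, the deposited table, a dye term, the variance prior, a separate-channel fit, a looser threshold of 0.1 and leaving out each array. The number of arrays limits the precision.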

Additional observations from a re-analysis of the deposited data

How the results depend on the processing

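Of 326 log2 ratios of single matrix genes under other settings of the 3 arrays, 315 kept their direction and their side of the threshold and 11 changed sign, none of them past the threshold. Part of these ratios could not change. With no filter on dim probes the same brightest probe stood for each gene. For a gene with 1 kept probe, the mean of all kept probes is that probe. The filter in both conditions also leaves a ratio as it was where the probe stays. Of the 315, 45 moved by over 1.5 times, 14 of them on Agilent's processed signals, 12 with a dye term and 8 with ratios scaled to the same spread. On processed signals Tnc moved from 0.32 to 1.55, Fbln5 from 0.49 to 1.37, Col11a1 from -1.37 to -2.67, Col14a1 from 0.71 to 1.35, Lum from -0.45 to -1.53 and Postn from -0.39 to -1.35. The sign changed with a dye term for Col1a1 (-0.33), Col1a2 (-0.017), Col3a1 (-0.43), Col5a1 (-0.16), Col12a1 (-0.0094), Fbn1 (-0.14), Loxl1 (-0.094) and Pdgfrb (-0.015), on Agilent's processed signals for Col5a1 (-0.034), with median centring for Eln (0.0058) and with the mean of all probes for Sparc (-0.65). Leaving out an array reversed 20 genes, with ranges over the 3 such fits of -1.41 to 2.57 for Col1a1, -0.76 to 1.82 for Col1a2, -2.04 to 1.31 for Col3a1, -1.03 to 0.71 for Col5a1, -0.35 to 0.87 for Col5a2, -0.063 to 0.67 for Col6a2, -0.13 to 0.73 for Col12a1, -0.16 to 1.32 for Col14a1, -2.93 to 1.08 for Postn, -0.64 to 2.26 for Dcn, -3.11 to 0.91 for Lum, -0.13 to 0.080 for Eln, -1.17 to 1.15 for Fbn1, -0.38 to 0.47 for Loxl1, -0.24 to 3.10 for Mgp, -0.88 to 0.46 for Thbs1, -0.20 to 0.37 for Thbs2, -0.035 to 0.29 for Sparc, -0.84 to 0.26 for Prrx1 and -0.58 to 0.76 for Pdgfrb. The count of matrix genes called by limma ranged from 0 to 4 when an array was left out and was 2 in the separate-channel fit. At least 2-fold lower were 2 to 9 with an array left out (9 without replicate 1, beside 2.55% of all genes), and 1 with median centring, with the mean of all probes and in the deposited table. At least 2-fold higher were 0 to 5 (5 without replicate 2, beside 4.73%). The median difference of replicate 1 from the other replicates in wild type was -0.24 without scaling between arrays and -0.41 on processed signals, and -0.21 to -0.018 with array 2 or 3 left out. Above 0 on replicate 1 and below 0 on the others were 11 to 14 genes under every setting tried with 3 arrays, and a larger spread in mutant+CT was found for 33 to 35. The cause of these changes was not tested. Signal over background limits Tnc, Col14a1 and Fbln5 in wild type and Col5a2, Col11a1, Lum, Ogn and Fbn2 in mutant+CT, whose probes were not well above background on every array.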
